A study of Mus musculus with 12 samples.

Results

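The genes described here carry symbols of 13 families of RNA splicing and RNA helicase genes: Srsf, Hnrnp, Rbm, Ddx, Dhx, Sf3, Snrp, Prpf, Clk, Luc7, Ints, Celf and Mbnl. Members were taken by symbol from the protein-coding genes listed in any of 4 deposited tables, leaving out Ddx58 and Ddx60. This gave 61 members of 9338 listed genes, of which 6886 were protein-coding. The same families hold 186 protein-coding genes in the GENCODE M21 annotation, so 32.8% of them were listed, beside 31.4% of all annotated protein-coding genes.

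RNA was sequenced from CD31+ cells of the lungs of 12 male mice, 3 in each of 4 groups. All mice carried floxed Tet2 alleles (TET2fl/fl) on a C57Bl/6J background, received 3 daily doses of 40 mg/kg tamoxifen when 6 to 8 weeks old, and were 30 weeks old at the end. TET2 KO mice also carried Cdh5-CreERT2, a recombinase that tamoxifen activates and that the promoter of the endothelial gene Cdh5 drives, while WT mice were Cre-negative littermates. The groups were WT chow, TET2 KO chow, WT HFD and TET2 KO HFD, where the high fat diet (HFD) took 60% of its energy from fat and the chow 13%, each fed for 20 weeks. Cells were selected with beads against CD31, a surface protein of endothelial cells that some blood cells share.

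An mRNA is made from a longer transcript by the spliceosome, whose core is built of small nuclear ribonucleoproteins (Snrp genes), the branch point complex SF3 and the Prpf proteins. SR proteins (Srsf genes) and hnRNP proteins bind the transcript and bias which exons are kept, CLK kinases phosphorylate the SR proteins, and CELF and MBNL proteins set tissue-specific choices. DEAD-box (Ddx) and DEAH-box (Dhx) helicases remodel RNA during splicing, ribosome assembly and antiviral sensing. Integrator (Ints genes) cleaves nascent transcripts at small nuclear RNA genes and at promoters where polymerase pauses.

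The deposited tables compare TET2 KO with WT on chow, HFD with chow in WT, TET2 KO with WT on HFD, and HFD with chow in TET2 KO. Each keeps only the genes that reached an unadjusted p-value below 0.05 in the authors' DESeq2 test, so a member that is not listed has no value here, and every count below is conditional on that threshold. The tables hold 5, 48, 34 and 6 members in that order, among 1298, 7330, 3939 and 1628 genes. Of the members, 33 stood in 1 table, 24 in 2 and 4 in 3. Normalized counts are reads per gene divided by a size factor of the library, comparable within a table, and FPKM divides reads by gene length and library total, comparable between genes and tables. "Called" means an unadjusted p under 0.05 in edgeR's quasi-likelihood test, two-sided, refitted on all listed genes of the table. The p-values take no account of how the genes came to be listed, and they measure the spread between 3 mice a group. The adjusted p printed beside a gene is a Benjamini-Hochberg value from the edgeR p-values of the listed genes. Its number of tests was set to the number of genes in the authors' adjustment, although genes not listed were not fitted. A called member can thus have an adjusted p well over 0.05. Error terms are SD over 3 libraries unless SE is written.

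Reads on genes ran from 36.7 M to 56.8 M per library, with a median of 39.6 M and the highest depth in WT HFD replicate 1. Defining endothelial markers were present in the cells, with Cdh5 at 12993 ± 6800 normalized counts in WT chow and 38781 ± 12375 in WT HFD. Tet2 was not listed in either table that compares genotypes, so the deletion was not checked here. Because the samples are bulk RNA, fewer cells of a type and less RNA per cell cannot be told apart.

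The members that HFD moved in WT mice were mostly lower. Of the 48 listed, 35 were lower in WT HFD and 13 higher, with a median log2 fold change of -0.31. Listed protein-coding genes as a whole leaned the other way, 42.5% of 5491 being lower, with a median of 0.36. The test called 41 members, 29 lower and 12 higher. That is 85.4% of the listed members, under the 91.6% called of all 7330 listed genes, so being called is no result about the members. By direction, with no test of the split, 60.4% of the listed members were called lower beside 49.2% of all listed genes. Called higher were 25% beside 42.4%. All members are protein-coding, and of the 5491 listed protein-coding genes 2150 were called lower and 2835 higher. With 3 libraries a side an exact permutation test of 1 gene cannot give a p below 0.1, so no such test was run. The groups did not overlap for 43 members, 89.6%, beside 86.5% of all listed genes.

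**Figure D1:**
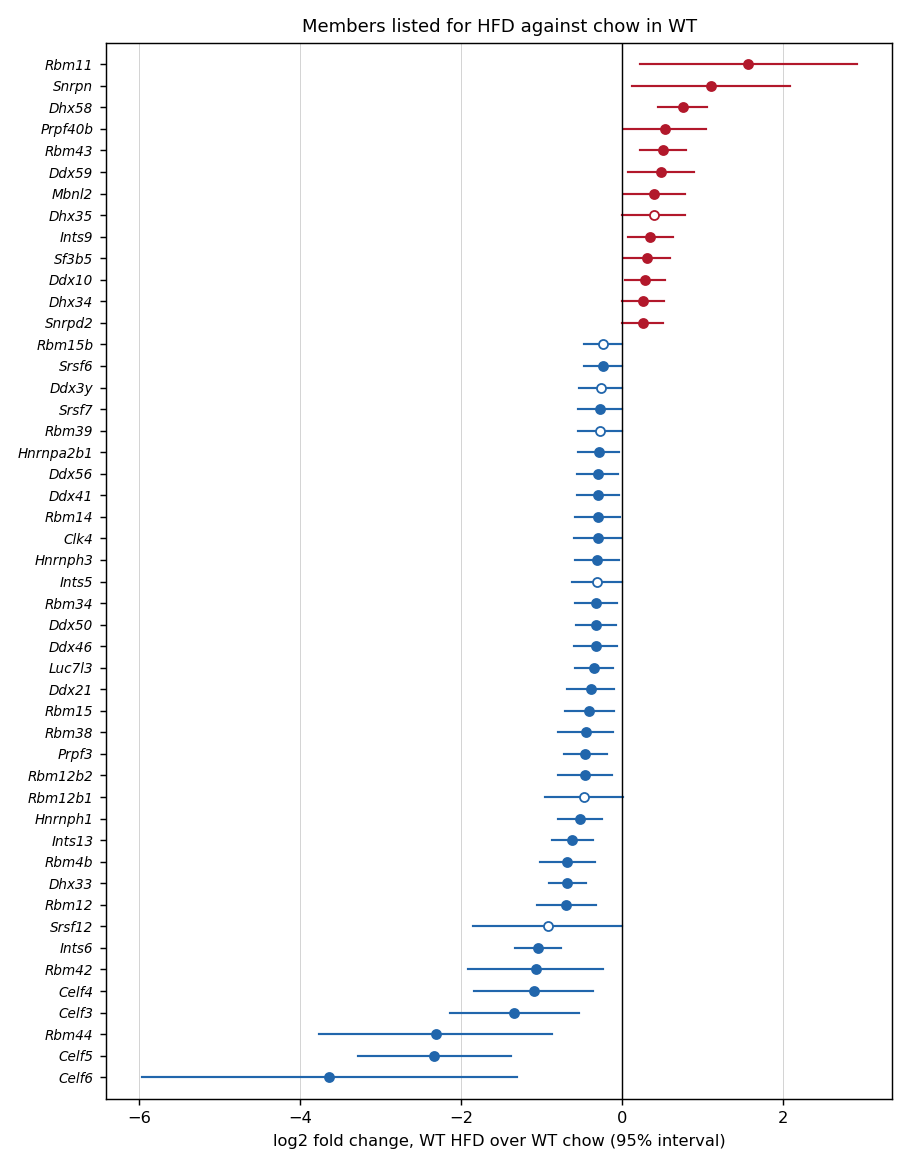
The log2 fold change of each of the 48 members listed for HFD against chow in WT (points, x axis) with its 95% interval (lines), filled where edgeR's unadjusted p is under 0.05 and open otherwise, red where higher in WT HFD and blue where lower. The 13 members at the top lie above 0, and the widest intervals belong to Celf6, Rbm44 and Rbm11, which had few reads.

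Of the 4 listed Integrator genes 3 were lower and 1 higher, and 3 were called. Ints6, which had the smallest p of all members and is the subunit of Integrator that bridges it to a phosphatase, had 5185, 6009 and 6074 normalized counts in the WT chow libraries and 2549, 2930.3 and 2901 in the WT HFD libraries. Every WT HFD library thus lay far below every WT chow library, and the mean in WT HFD was 0.485 times that in WT chow. Its log2 fold change was -1.04 (SE 0.12) with an edgeR adjusted p of 0.0357. Ints13, also known as Asunder, fell from 2941 ± 69.4 to 1915 ± 163 normalized counts, a log2 fold change of -0.62 (SE 0.11, edgeR adjusted p = 0.0368). Ints9, part of the cleavage module, went the other way, with 1005, 849 and 943 normalized counts in WT chow and 1135, 1262 and 1167 in WT HFD, all 3 above the chow libraries (log2 fold change 0.35, edgeR adjusted p = 0.109).

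Dhx33, a helicase of ribosomal RNA synthesis that also senses double-stranded RNA, had 3845, 3763 and 3564 normalized counts in WT chow and 2240.2, 2389 and 2346 in WT HFD. The spread within either group was small beside the gap between them, and the log2 fold change was -0.68 (SE 0.10, edgeR adjusted p = 0.0357). Dhx58, which encodes the RIG-I-like receptor LGP2 and is induced by interferon, was the member with an adjusted p under 0.05 that was higher. It rose from 638, 668 and 705 normalized counts in WT chow to 1255, 1011 and 1132 in WT HFD (log2 fold change 0.76, SE 0.13, edgeR adjusted p = 0.0368). Dhx34, a factor of nonsense-mediated decay, was called higher by less, with a log2 fold change of 0.26 (SE 0.11, edgeR adjusted p = 0.173).

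Of the hnRNP family 4 of 20 annotated genes were listed in any table, and the 3 listed here all fell. Hnrnph1 encodes a protein that binds runs of G in transcripts and had the highest FPKM of the listed members in both WT groups. It measured 188.7, 194.5 and 200.3 FPKM in WT chow and 130.1, 147.7 and 128.1 in WT HFD, without overlap. On normalized counts its log2 fold change was -0.52 (SE 0.12, edgeR adjusted p = 0.0499). Hnrnpa2b1, a relative that also binds microRNA precursors, measured 120.5, 134.9 and 127.5 FPKM in WT chow and 104.4, 104.6 and 103 in WT HFD (log2 fold change -0.29, SE 0.11, edgeR adjusted p = 0.133). Hnrnph3 had a log2 fold change of -0.31 (SE 0.12, edgeR adjusted p = 0.139).

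The 3 listed SR genes and the kinase Clk4 were lower, and all but Srsf12 were called. Srsf6 had 17518, 17742 and 17586 normalized counts in WT chow and 14911, 15369.5 and 14641 in WT HFD, a gap several times the spread in either group with a log2 fold change of -0.23 (SE 0.10, edgeR adjusted p = 0.175). Srsf7, which couples splicing to export of the mRNA, was at 10681 ± 577 normalized counts in WT chow and 8853 ± 777 in WT HFD (log2 fold change -0.27, edgeR adjusted p = 0.176). Clk4, a kinase of SR proteins, had 5779, 6189.7 and 5422 normalized counts in WT chow and 4653, 5235 and 4207 in WT HFD (log2 fold change -0.30, edgeR adjusted p = 0.159). Luc7l3, a protein of the U1 particle, fell from 4713 ± 199 to 3705 ± 156 normalized counts (log2 fold change -0.35, SE 0.10, edgeR adjusted p = 0.0758). Srsf12, listed at 51.7 ± 17.3 and 26.9 ± 8.73 normalized counts with overlapping groups, was not called (log2 fold change -0.92, SE 0.39, edgeR adjusted p = 0.178).

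The Rbm family gave the most listed members, 12 lower and 2 higher, and 9 of the lower ones were called. Rbm4b, whose protein regulates 5' splice sites, had 1459.6, 1329 and 1289.8 normalized counts in WT chow and 756, 1005 and 788 in WT HFD (log2 fold change -0.68, SE 0.15, edgeR adjusted p = 0.0464). Its close copy Rbm4 was not listed, and reads that the copies share could be assigned to either. Rbm12 fell from 1229.5 ± 161 to 761 ± 98.8 normalized counts (log2 fold change -0.69, SE 0.15, edgeR adjusted p = 0.0497). Exons of Rbm12 overlap those of Cpne1 on the same strand, so its count depends on how reads in both were assigned. Rbm39, a partner of U2AF, had 30389, 28384 and 29694 normalized counts in WT chow and 23327, 26974 and 22903 in WT HFD, and was not called (log2 fold change -0.27, edgeR adjusted p = 0.183). Rbm43 rose, with 643, 706 and 618 normalized counts in WT chow and 985, 871 and 944 in WT HFD (log2 fold change 0.51, SE 0.12, edgeR adjusted p = 0.055). The called log2 fold changes of the Rbm family otherwise ran from -2.31 for Rbm44, at 98.4 ± 33.2 and 20.1 ± 17.9 normalized counts, to 1.57 for Rbm11, at 4.74 ± 2.49 and 14.8 ± 6.52.

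All 4 listed CELF genes were called lower, at low levels. Celf5 had 36.2, 83.8 and 78.5 normalized counts in WT chow and 12.5, 14.8 and 11.8 in WT HFD (log2 fold change -2.33, SE 0.40, edgeR adjusted p = 0.0368). Celf3 had 80.9, 104 and 57 normalized counts in WT chow and 25.8, 27.5 and 42.8 in WT HFD (log2 fold change -1.34, edgeR adjusted p = 0.0611). These genes are known mainly from neurons, and the highest group mean of the 4 was 1.17 FPKM, for Celf4 in WT chow. Celf1 and Celf2, the widely expressed members, were not listed. Mbnl2, of the family that opposes CELF proteins at many exons, was called higher although its groups overlapped: 5277, 6003 and 7364 normalized counts in WT chow and 8057, 7290.3 and 9248 in WT HFD (log2 fold change 0.40, SE 0.16, edgeR adjusted p = 0.156).

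Core spliceosome genes were few and split. Prpf3, a protein of the U4/U6 particle, fell from 1802 ± 65.6 to 1314 ± 113 normalized counts (log2 fold change -0.46, SE 0.11, edgeR adjusted p = 0.0584). Sf3b5, the smallest protein of the SF3B complex, had 1036, 1148 and 1127 normalized counts in WT chow and 1223, 1420.2 and 1476 in WT HFD (log2 fold change 0.31, edgeR adjusted p = 0.142). Snrpd2, a protein of the Sm ring, had a log2 fold change of 0.26 (SE 0.11, edgeR adjusted p = 0.167). Snrpn, the imprinted Sm gene, stood at 16.9 ± 4.99 and 36.1 ± 15.5 normalized counts (log2 fold change 1.11, edgeR adjusted p = 0.136), and it shares exons with Snurf.

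Of the DEAD-box helicases 6 were lower and 2 higher. Ddx21, a nucleolar helicase of ribosome synthesis, had 10207, 11169 and 10221 normalized counts in WT chow and 7030.0, 8754 and 8357 in WT HFD (log2 fold change -0.39, SE 0.12, edgeR adjusted p = 0.0934). The log2 fold changes of the other lower ones lay between -0.33 for Ddx46, a helicase of the early spliceosome, and -0.27 for Ddx3y, which was not called (edgeR adjusted p = 0.184). Ddx59 rose from 228 ± 21.5 to 318 ± 42.6 normalized counts (log2 fold change 0.48, edgeR adjusted p = 0.125), and Ddx10 from 1458 ± 46.8 to 1777 ± 103 (log2 fold change 0.29, edgeR adjusted p = 0.126).

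Of the 48 members, 8 had an edgeR adjusted p under 0.05, or 16.7% beside 18.7% of all listed genes: Ints6, Dhx33, Dhx58, Celf5, Ints13, Rbm4b, Rbm12 and Hnrnph1. All 8 were called at the unadjusted p without any single library, as were 7 others, 15 in all. No count over all listed genes stands beside this, so it is no result about the members. Without WT chow replicate 2, or without any one of the 3 WT HFD libraries, 0 members kept an adjusted p under 0.05, while 20 to 29 were called at the unadjusted p. The adjusted count was 2 without WT chow replicate 1 and 7 without WT chow replicate 3. The libraries were also rescaled so that listed genes had no median difference between them. This moved the median of all listed genes by 0.135 on the log2 scale. It gave 13 higher and 12 lower calls in place of 12 and 29, so lower calls no longer outnumbered higher ones. The shares of all listed genes called either way after it are not given here. The members' median was -0.17 after that rescaling, and -0.50 once the trend of fold change with gene length was removed. TMM scaling called 30 members, 30% of them higher. Relative to the median of all listed genes, -0.33, the members' median of -0.31 is nearly level. That median mixes weakly counted genes, mostly lower, with others: among listed protein-coding genes with a mean over 1000 normalized counts 38.5% were lower, beside 25 of the 31 members in that range. At 100 to 1000 normalized counts 34% were lower, beside 4 of 9 members. The shares were 60.5% beside 5 of 6 members at 10 to 100, and 82.1% beside 1 of 2 members under 10.

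Marker genes of other cell types and RNA classes moved with the diet in the same libraries. Of 18 endothelial markers 15 were listed and all 15 were higher in WT HFD, 14 of them called, their summed level being 366.7 to 998.7 FPKM in WT chow and 1069 to 1915 FPKM in WT HFD. All 9 NK cell markers were called higher, with sums of 35.2 to 61.76 FPKM in WT chow and 105.7 to 174.6 FPKM in WT HFD. Retnlg, the 1 neutrophil marker of 8 listed, was at 268.9 to 488.5 FPKM in WT chow and 53.3 to 229.1 FPKM in WT HFD. Of 11 monocyte and macrophage markers 4 were called higher and 3 lower, of 15 lung epithelial markers 3 higher and 2 lower, of 11 fibroblast and smooth muscle markers 1 each way, and of 13 T cell markers 2 higher. The monocyte and macrophage markers summed to 225 to 339.2 FPKM in WT chow and 251.2 to 409.1 FPKM in WT HFD. The epithelial markers summed to 4386 to 5887 and 2296 to 4652. Each sum covers only the listed genes. Of the listed epithelial markers Scgb1a1 had the highest normalized counts in both groups and was not called. Those called higher were Ager, Hopx and Rtkn2, and those called lower were Scgb3a2 and Epcam. Of 8 B cell markers 0 were listed, 1 of 5 mesothelial markers was listed and not called, and 1 of 8 erythroid and platelet markers was called lower. Among immediate early genes, which tissue digestion can induce, 8 of 20 were listed and all 8 were called higher, with sums of 2178 to 2566 FPKM in WT chow and 3047 to 3595 FPKM in WT HFD. Of 6 RNAs retained in the nucleus, Malat1 and Kcnq1ot1 were called lower, with log2 fold changes of -0.64 and -1.59. Of 14 heat shock genes 4 were called lower, and of 18 clock genes 2 were called lower and 1 higher. The part of these in the members' values was not tested.

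Other genes of RNA processing, from lists written beside the members, were counted in the same way. Of 97 other splicing factors and RNA-binding regulators 22 were listed for HFD against chow in WT, and 7 were called higher and 11 lower, with a median log2 fold change of -0.03. Sfpq, a paraspeckle protein, fell from 28962 ± 2147 to 19143 ± 1438 normalized counts, and Tia1, a stress granule protein, rose from 1439 ± 297 to 2378 ± 452. Of 26 genes of the exon junction, export and decay 5 were listed and all 5 were called lower, with a median of -0.38. Of 20 genes of 3' end processing 6 were listed, 5 called lower and 1 higher, and Rbbp6 had the lowest log2 fold change of them, -0.86 (SE 0.12).

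Promoters from RefSeq on GRCm38.p6, 250 bases before to 50 after the start, were found for 52 of the 61 members by symbol. None was found for Dhx58, so the shares below do not cover it. Members' promoters held a median of 25 CpG dinucleotides and 62.2% G and C, beside 14 and 57% over 16521 protein-coding promoters. The letters TGACGT, the core of the cyclic AMP response element, stood on either strand in 21.2% of the members' promoters, beside 8.97% of all protein-coding promoters. No other motif searched contains TGACGT. Those were CCGGAAG, in 17.3% of members and 12.3% of all, the palindromic NRF1 motif (1.92% and 1.38%), the YY1 motif (1.92% and 1.03%), CCAAT (48.1% and 38.8%), the interferon-stimulated response element (3.85% and 3.47%), GGGCGG (78.8% and 48.2%) and TATAAA (5.77% and 12.9%). Split by direction in WT HFD, over 30 promoters of lower and 10 of higher members, TGACGT stood in 30% and 0%, CCGGAAG in 13.3% and 30%, CCAAT in 43.3% and 60%, and GGGCGG in 70% and 90%. The other motifs stood in at most 1 promoter of either set. TGACGT holds a CpG, as do CCGGAAG and GGGCGG, and the promoters compared were not matched for CpG or for G and C. With 10 promoters in the smaller set no split was tested, and a match of letters is a description and not a bound site.

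The 250 bases before the start are given for 5 members lower in WT HFD that hold TGACGT, in capitals in whichever strand it lies, and for Rbm43, the higher member in which 2 overlapping matches of the interferon-stimulated response element are in capitals. They are written in the direction of transcription. Dhx33 is chr11:71004433-71004682 on the minus strand, with the match beginning 228 bases before the start. Hnrnph1 is chr11:50376740-50376989 on the plus strand, with the match at 120 bases. Rbm12 is chr2:156111966-156112215 on the minus strand, at 25 bases. Srsf6 is chr2:162931258-162931507 on the plus strand, at 50 bases. Hnrnpa2b1 is chr6:51469895-51470144 on the minus strand, at 18 bases. Rbm43 is chr2:51935164-51935413 on the minus strand, with the first match at 224 bases.
Dhx33: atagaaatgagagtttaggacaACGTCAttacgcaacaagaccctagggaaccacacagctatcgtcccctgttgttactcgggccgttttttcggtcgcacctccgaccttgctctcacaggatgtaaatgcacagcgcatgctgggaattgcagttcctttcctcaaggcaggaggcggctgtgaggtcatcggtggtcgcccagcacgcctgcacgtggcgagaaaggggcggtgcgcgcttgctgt
Hnrnph1: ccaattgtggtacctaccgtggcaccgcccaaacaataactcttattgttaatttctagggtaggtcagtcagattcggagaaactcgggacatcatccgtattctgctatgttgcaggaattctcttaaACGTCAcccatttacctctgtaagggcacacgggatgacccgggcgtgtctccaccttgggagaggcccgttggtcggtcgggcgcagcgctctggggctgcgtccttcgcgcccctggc
Rbm12: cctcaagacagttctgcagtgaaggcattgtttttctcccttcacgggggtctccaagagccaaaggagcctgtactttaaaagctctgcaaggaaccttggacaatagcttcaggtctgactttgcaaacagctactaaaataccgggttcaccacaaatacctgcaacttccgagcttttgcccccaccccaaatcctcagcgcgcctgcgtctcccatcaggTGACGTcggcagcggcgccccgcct
Srsf6: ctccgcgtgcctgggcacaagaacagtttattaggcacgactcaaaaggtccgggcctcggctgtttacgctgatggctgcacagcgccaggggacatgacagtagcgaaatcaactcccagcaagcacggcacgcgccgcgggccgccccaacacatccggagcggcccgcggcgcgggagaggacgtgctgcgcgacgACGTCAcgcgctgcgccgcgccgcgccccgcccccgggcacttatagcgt
Hnrnpa2b1: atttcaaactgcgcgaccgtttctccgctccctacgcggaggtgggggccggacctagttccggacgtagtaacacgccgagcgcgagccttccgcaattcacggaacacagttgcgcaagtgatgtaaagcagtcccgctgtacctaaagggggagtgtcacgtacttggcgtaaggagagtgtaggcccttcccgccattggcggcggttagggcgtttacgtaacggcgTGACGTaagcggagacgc
Rbm43: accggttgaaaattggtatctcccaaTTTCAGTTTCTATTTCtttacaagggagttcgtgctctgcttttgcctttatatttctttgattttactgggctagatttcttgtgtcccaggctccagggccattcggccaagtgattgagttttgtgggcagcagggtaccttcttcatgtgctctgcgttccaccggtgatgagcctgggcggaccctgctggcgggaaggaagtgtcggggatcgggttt

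On HFD the listed members were mostly higher in TET2 KO than in WT. Of the 34 members listed for TET2 KO against WT on HFD, 30 were higher in TET2 KO and 4 lower. Their median log2 fold change was 0.36. Of the 2996 listed protein-coding genes 42.4% were higher, with a median of -0.40. Over all 3939 listed genes 52.2% were higher, and the median was 0.33, so the members' median is nearly level with it. The test called 22 members, 64.7%, beside 82.3% of all 3939 listed genes. Called higher were 19, or 55.9% of the members beside 43.1% of all genes, and called lower were 3, or 8.82% beside 39.1%. Of the 2996 listed protein-coding genes 1000 were called higher and 1411 lower. The groups did not overlap for 28 members, 82.4%, beside 74.7% of all listed genes. By edgeR 0 members had an adjusted p under 0.05, the lowest being 0.237, and 0 of all 3939 listed genes did. DESeq2 run on the same listed counts called 32 members at the unadjusted p and 3 at the adjusted p. The listing was itself by the authors' DESeq2 test, so the count of 32 was largely fixed in advance and adds no evidence. The count of 3 repeats that kind of test on the same libraries. It has no share of all listed genes beside it and is not separate evidence either.

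**Figure D2:**
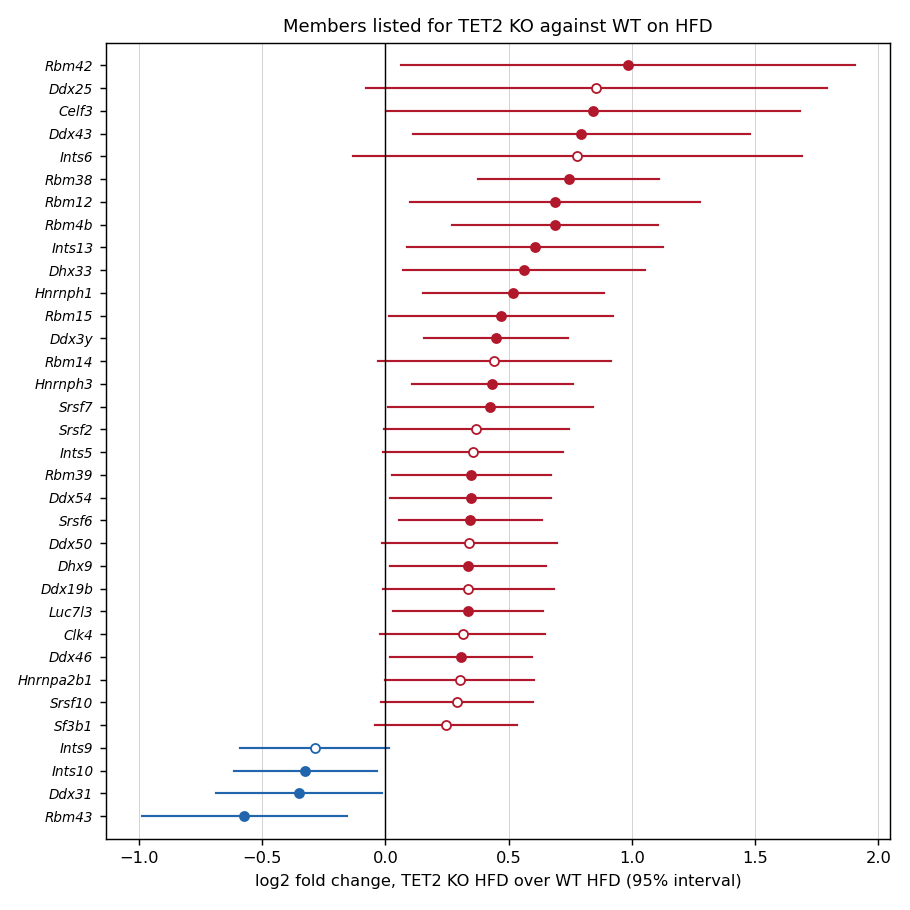
The log2 fold change of each of the 34 members listed for TET2 KO against WT on HFD (points, x axis) with its 95% interval (lines), filled where edgeR's unadjusted p is under 0.05 and open otherwise, red where higher in TET2 KO and blue where lower. The 4 members at the bottom, Ints9, Ints10, Ddx31 and Rbm43, lie below 0, and no point lies outside -1 to 1.

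This table shares its 3 WT HFD libraries with the table of HFD against chow in WT, so a member whose WT HFD libraries lie low or high is moved in both, in opposite directions. The values of the 2 tables are therefore given side by side and not counted as separate evidence.

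Rbm38, an RNA-binding protein induced by p53 that stabilizes p21 mRNA, had the smallest p on HFD. It had 3641, 4659.8 and 3842 normalized counts in WT HFD and 7454, 6863 and 6005 in TET2 KO HFD, with every knockout library above every WT library. Its log2 fold change was 0.74 (SE 0.16, edgeR adjusted p = 0.237), beside -0.45 for HFD against chow in WT. Rbm4b measured 750.1, 1004 and 783 normalized counts in WT HFD and 1571, 1334 and 1181 in TET2 KO HFD (log2 fold change 0.69, SE 0.18, edgeR adjusted p = 0.237), beside -0.68. Rbm43, with 978, 871 and 939 normalized counts in WT HFD and 491, 647 and 736 in TET2 KO HFD, fell (log2 fold change -0.57, SE 0.18, edgeR adjusted p = 0.237), beside 0.51.

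Among the hnRNP genes, Hnrnph1 had 31619.8, 36082 and 31241 normalized counts in WT HFD and 55068, 45777 and 40961 in TET2 KO HFD. The knockout libraries spread more than the WT libraries but did not overlap them (log2 fold change 0.52, SE 0.16, edgeR adjusted p = 0.237). Hnrnph3 had 1456, 1474 and 1213 normalized counts in WT HFD and 1867, 1851 and 1876 in TET2 KO HFD (log2 fold change 0.43, SE 0.14, edgeR adjusted p = 0.241). Hnrnpa2b1 had 28602, 28803 and 28306 normalized counts in WT HFD and 37662, 36030.2 and 31894 in TET2 KO HFD, which did not overlap but missed the threshold (log2 fold change 0.30, edgeR adjusted p = 0.289).

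All 4 listed SR genes were higher in TET2 KO HFD and 2 were called. Srsf6 had 14798, 15364 and 14556 normalized counts in WT HFD and 19749, 19428 and 17595 in TET2 KO HFD (log2 fold change 0.34, SE 0.12, edgeR adjusted p = 0.25). Srsf7 had 8545, 9719 and 8177 normalized counts in WT HFD and 14504, 11238 and 9791 in TET2 KO HFD (log2 fold change 0.43, SE 0.18, edgeR adjusted p = 0.282). Srsf2, an activator of exon inclusion through exonic enhancers, was at 14297 ± 1571 and 18468 ± 2708 normalized counts and was not called (log2 fold change 0.37, edgeR adjusted p = 0.296). Exons of Srsf2 overlap those of Mettl23 and Mfsd11 on the opposite strand, and whether counting used the strand is not given in the sources used here. Sf3b1, the largest protein of the SF3B complex, had 35083, 38438 and 35285 normalized counts in WT HFD and 42914, 42443 and 43656 in TET2 KO HFD, apart in every library yet not called (log2 fold change 0.25, edgeR adjusted p = 0.398). Clk4 (log2 fold change 0.31, edgeR adjusted p = 0.322) was not called, and Luc7l3 was called higher (0.33, edgeR adjusted p = 0.262), as was Rbm39 (0.35, edgeR adjusted p = 0.267).

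Of the helicases on HFD 9 of 10 were higher. Ddx3y, the Y-linked relative of the translation helicase Ddx3x, had 6657, 7046 and 6765 normalized counts in WT HFD and 9452, 9848 and 8652 in TET2 KO HFD (log2 fold change 0.45, SE 0.13, edgeR adjusted p = 0.237). Ddx3x was not listed, and all mice were male. Dhx9, RNA helicase A, had 9672, 11043 and 9518 normalized counts in WT HFD and 13548, 11716 and 12884 in TET2 KO HFD (log2 fold change 0.34, SE 0.14, edgeR adjusted p = 0.27). Ddx31, a nucleolar helicase, was lower, at 606 ± 47 and 475 ± 41.4 normalized counts (log2 fold change -0.35, edgeR adjusted p = 0.274). Of 5 listed Integrator genes 3 were higher and 2 lower. Ints13 was called higher, at 1906 ± 170 normalized counts in WT HFD and 2903 ± 840 in TET2 KO HFD (log2 fold change 0.61, SE 0.22, edgeR adjusted p = 0.251). Ints6 and Ints5, with log2 fold changes of 0.78 and 0.36, and Ints9, with -0.29, were not called. Ints10 was called lower, at 1075 ± 41.3 normalized counts in WT HFD and 858 ± 5.75 in TET2 KO HFD (log2 fold change -0.33, SE 0.12, edgeR adjusted p = 0.26).

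In several members the TET2 KO HFD libraries disagreed with each other. Ints6 had 7234, 4977 and 2104 normalized counts in the 3 TET2 KO HFD libraries, so that replicate 3 lay below all 3 WT HFD libraries, which held 2529, 2929 and 2884, and the member was not called (log2 fold change 0.78, SE 0.39, edgeR adjusted p = 0.399). Rbm12 had 1539, 1327 and 796 normalized counts there, Ints13 3796, 2785 and 2128, and Dhx33 4307, 3493 and 2457. Over the 34 members the median log2 ratio to the WT HFD mean was 0.50, 0.37 and 0.23 in TET2 KO HFD replicates 1, 2 and 3. The count of called members was 26 without TET2 KO HFD replicate 3, 8 without replicate 1 and 6 without replicate 2, and it was 6, 17 and 8 without WT HFD replicates 1, 2 and 3. Called in the fit without any single library were 5 members: Rbm38, Rbm4b, Ddx3y, Hnrnph1 and Rbm43. The share of all listed genes that did so is not given here. The same rescaling, which moved the median of listed genes by -0.122 on the log2 scale, left 8 called higher and 4 lower, 66.7% higher in place of 86.4%.

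Endothelial markers moved the other way in these libraries. Of 18, 14 were listed and all 14 were lower in TET2 KO HFD, 11 of them called, with sums of 1143 to 2089 FPKM in WT HFD and 623.2 to 1138 FPKM in TET2 KO HFD. Of the other marker lists, 3 lung epithelial markers (sums of 71.31 to 87.17 FPKM in WT HFD and 28.92 to 48.37 in TET2 KO HFD) and 1 monocyte marker were called lower, 2 NK cell markers and 1 mesothelial marker were listed and not called, and the remaining lists had no listed gene. Malat1 and Kcnq1ot1 were called higher, and 3 immediate early genes lower. Of the other splicing factors 7 were called higher and 2 lower, of the genes of exon junction, export and decay 4 higher and of 3' end processing 5 higher. Clock genes gave 3 called higher and heat shock genes 0 of 1 listed. The part of these in the members' values was not tested.

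Levels in 3 groups could be set side by side for the 24 members in both of these tables, fitted over 9 libraries with all 2947 genes that both list. TET2 KO HFD differed from WT chow in 0 of 24 members by edgeR at an unadjusted p under 0.05, the lowest p being 0.104, and in 5.63% of all genes fitted. The estimated log2 fold changes ran from -0.50 for Celf3 to 0.28 for Rbm38, with a median of 0.004 and intervals that reached 0.34 to either side in the median member. Genes in both tables were chosen for WT HFD libraries that differ from both other groups, which places the other 2 groups on one side of WT HFD, and a p that misses the threshold does not show that their levels are equal. Median log2 ratios to the WT chow mean over the 24 members were -0.33, -0.26 and -0.47 in WT HFD replicates 1 to 3. In TET2 KO HFD replicates 1 to 3 they were 0.20, -0.002 and -0.13, on both sides of the WT chow level. Over all 2947 genes fitted the median log2 fold change of TET2 KO HFD against WT chow was 0.03. Of these genes 99.97% moved in opposite directions in the 2 comparisons, so the pattern is not particular to the members.

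**Figure D3:**
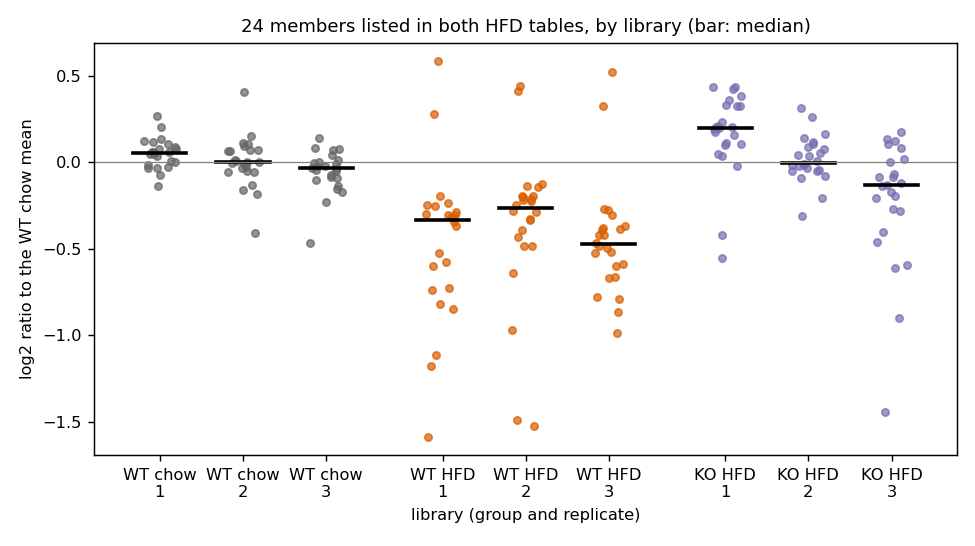
The log2 ratio of the 24 members listed in both HFD tables to their mean in WT chow (y axis), with 1 point per member and a bar at the median, for each of 9 libraries in 3 groups (x axis). The WT HFD medians lie between -0.47 and -0.26 and the TET2 KO HFD medians between -0.13 and 0.20.

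By FPKM, which allows levels of different genes to be compared, the highest listed members in WT HFD were Hnrnph1 at 135 ± 10.8, Srsf2 at 116 ± 12.4, Hnrnpa2b1 at 104 ± 0.87, Srsf7 at 92.7 ± 8.3, Rbm39 at 83.8 ± 7.83, Sf3b1 at 76.5 ± 3.8 and Srsf6 at 74.3 ± 1.96. Neighbours in that order differed by less than the sum of their SDs, except Hnrnpa2b1 from Srsf7, and Srsf6 from the next member, Ddx21 at 37.1 ± 4.18. The median over the 58 members with a WT HFD value was 7.42 FPKM, and 11 were under 1 FPKM.

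**Figure D4:**
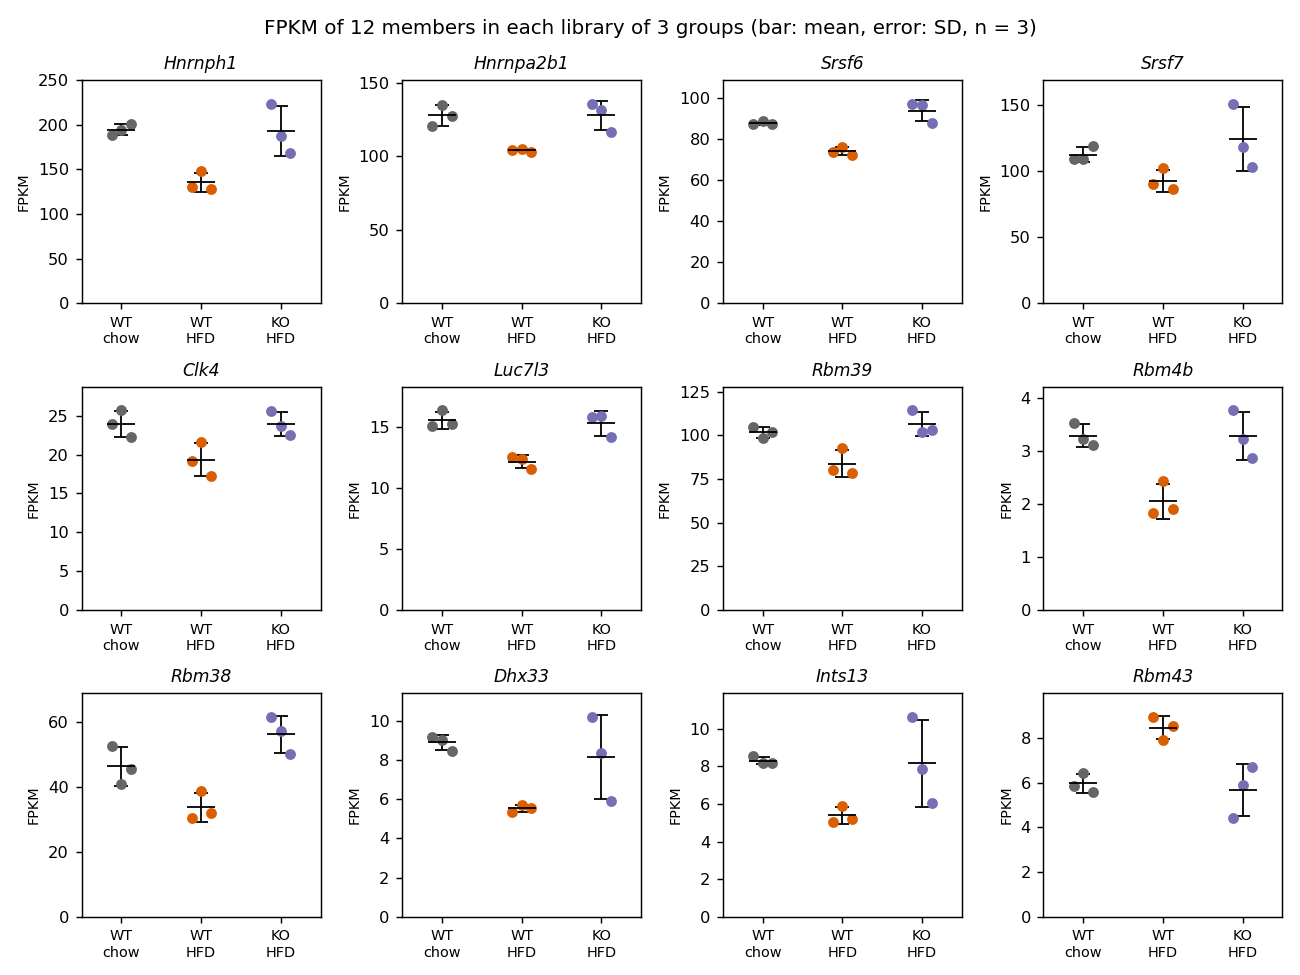
FPKM (y axis, from 0) of 12 members in the 3 libraries of WT chow, WT HFD and TET2 KO HFD (x axis), each library a point, with the mean as a bar and the SD as error. In Rbm43 the WT HFD libraries lie highest, and in the other 11 members the WT HFD mean is the lowest of the 3.

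On chow, TET2 KO against WT listed 5 members, and 4 were called, 80% beside 76.6% of all 1298 listed genes. Ints6 was the lower one with the smallest p, at 5080.5, 5781 and 5795 normalized counts in WT chow and 2976, 3911 and 3587 in TET2 KO chow, apart in every library (log2 fold change -0.67, SE 0.15, edgeR adjusted p = 0.792). It was also called in this comparison without any single library, and was the only one of the 5 that was. Rbm12 was at 1254, 1308 and 1001 normalized counts in WT chow and 749.7, 946 and 953 in TET2 KO chow (log2 fold change -0.43, SE 0.17, edgeR adjusted p = 0.898), and Celf3 at 77.9 ± 23 and 47.6 ± 6.33 (log2 fold change -0.71, edgeR adjusted p = 0.92). Prpf3 was not called (log2 fold change -0.27, edgeR adjusted p = 0.975). The member that was higher, Dhx40, had 2775, 1558 and 4351 normalized counts in TET2 KO chow and 1734, 1573 and 1519 in WT chow, so that 1 knockout library lay within the WT range, and it was called (log2 fold change 0.85, SE 0.33, edgeR adjusted p = 0.898). Leaving out single libraries moved its log2 fold change between 0.43 and 1.15, and it kept its call in 1 of 6 such fits.

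In TET2 KO mice, HFD against chow listed 6 members and 2 were called, 33.3% beside 77% of all 1628 listed genes. Celf4 had 347, 423 and 318 normalized counts in TET2 KO chow and 182, 265 and 166 in TET2 KO HFD (log2 fold change -0.83, SE 0.24, edgeR adjusted p = 0.706), and was called without any single library. Dhx40, called lower (log2 fold change -0.86, edgeR adjusted p = 0.718), had 1510.1, 1625 and 1633 normalized counts in TET2 KO HFD, and the table shares with the one on chow the TET2 KO chow libraries in which it was uneven. Ddx3y had 6520.3, 7233 and 7480.1 normalized counts in TET2 KO chow and 8991, 9463 and 8374 in TET2 KO HFD, without overlap and without a call (log2 fold change 0.34, edgeR adjusted p = 0.775). Hnrnpa0 was listed in this table alone, at 13881 ± 699 normalized counts in TET2 KO chow and 17118 ± 1085 in TET2 KO HFD (log2 fold change 0.30, edgeR adjusted p = 0.889). T cell markers moved in both of these tables, with 7 of 13 called higher in TET2 KO chow against WT chow and 5 called lower on HFD in TET2 KO. Mesothelial markers did the reverse, with 4 of 5 called lower and 4 called higher. For TET2 KO against WT on chow 4 epithelial and 4 fibroblast markers were also called lower and 2 NK cell and 2 monocyte markers higher, and for HFD against chow in TET2 KO 3 monocyte markers were called lower and 2 fibroblast markers higher. In the latter table Emcn of the endothelial markers, Blk of the B cell markers and Muc5b of the epithelial markers were also called higher and the epithelial Epcam lower, while 1 NK cell marker was listed and not called. In the former 2 endothelial markers were listed and not called. The remaining cell type lists had no listed gene in either table. Their part in the members' values was not tested.

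Whether the effect of the diet differed between the genotypes was tested for the genes with values in all 12 libraries, which the tables list for some difference. Of the 5 members among them, 4 had an edgeR adjusted p under 0.05 over these genes, 80% beside 55.5% of all genes fitted, and in all 4 the diet effect was more negative in WT. A gene has values in all 12 libraries only if both genotype comparisons, or both diet comparisons, listed it. The interaction is the difference of those listed effects, so its p-values are not free of the listing. The listed genotype effects of Ints6, Rbm12 and Celf3 were opposite on chow and HFD. The listed diet effects of Ddx3y were opposite in WT and TET2 KO, and those of Celf4 were not. The difference of the log2 fold changes was 1.44 (SE 0.47) for Ints6, 1.11 (SE 0.34) for Rbm12, 1.54 (SE 0.49) for Celf3 and 0.61 (SE 0.22) for Ddx3y, with edgeR adjusted p-values of 0.0219, 0.0196, 0.0204 and 0.0332. For Celf4 it was 0.27 (SE 0.42, edgeR adjusted p = 0.74). In FPKM, Ints6 measured 7.397, 8.6 and 8.623 in WT chow, 4.372, 5.842 and 5.299 in TET2 KO chow, 3.618, 4.168 and 4.113 in WT HFD, and 10.21, 7.091 and 3.01 in TET2 KO HFD. The lowest and the highest of the 12 values thus both came from TET2 KO HFD. At the unadjusted p all 4 were called without any single library, but at the adjusted p the count was 1 without WT HFD replicate 1, 2 without WT chow replicate 2, TET2 KO chow replicate 1 or TET2 KO HFD replicate 2, and 3 or 4 otherwise.

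**Figure D5:**
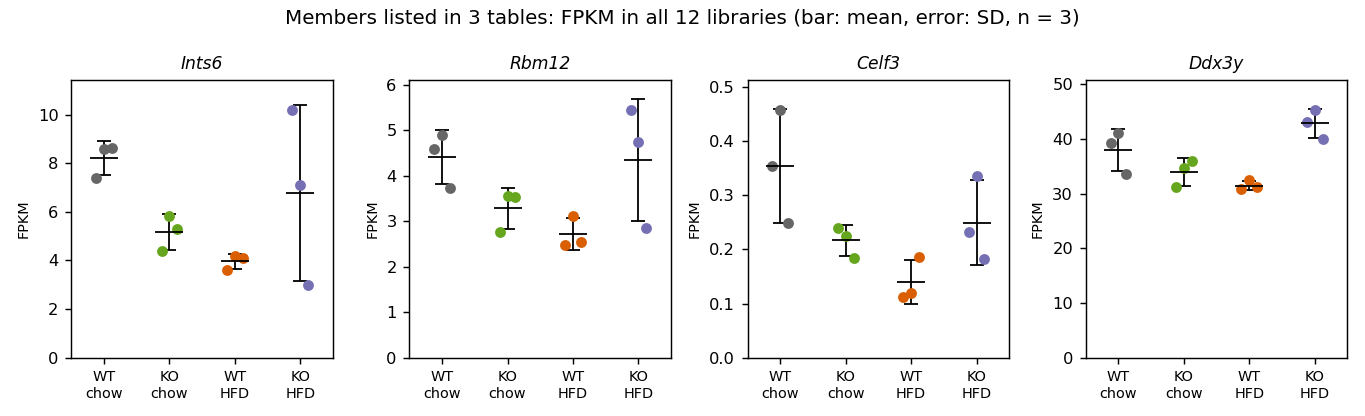
FPKM (y axis, from 0) of Ints6, Rbm12, Celf3 and Ddx3y, the members listed in 3 tables, in all 12 libraries of the 4 groups (x axis), each library a point, with the mean as a bar and the SD as error. WT HFD has the lowest mean in all 4 panels, and the TET2 KO HFD points of Ints6 run from 3.01 to 10.21 FPKM.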

How the data were processed

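RNA of CD31+ lung cells from 12 mice was sequenced. Per the labels, the authors aligned reads to mm10 with HISAT2 and counted them per gene with featureCounts, and the deposited tables hold these counts. The strand setting and annotation release are not given in the sources used here. Exons of 22 members overlap another gene, and those of 12 members overlap another protein-coding gene, so their counts can depend on read assignment. Among the 22 are Ints13 (with Fgfr1op2), Hnrnph3 (with Rufy2), Ints5 (with Gm49416) and Dhx58 (with the antisense Dhx58os). The deposited normalized counts (unit signal) are counts that the authors divided by a DESeq2 size factor, and the deposited FPKM values are counts that the authors scaled by gene length and library total. The deposited log2 fold changes and p-values are the authors' own comparisons: the log2 values were not used, and the p-values served only to find the listing threshold and the number of genes adjusted.

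edgeR 4.0.16 (quasi-likelihood, two-sided) was run in R 4.3.3 on all listed genes of each table with the authors' size factors. A check on simulated data used genes that were mostly unchanged, not genes kept for a small p. That check therefore does not bear on how the listing affects the p-values. The interaction used size factors chained over the 4 tables. The comparison of 3 groups was added after seeing the data. DESeq2 1.42.0, other scalings, removal of a gene length trend, a minimum mean of 10, a replicate block and leaving out each library were alternatives. Per comparison, members were named where they were among the 6 higher or 6 lower with the smallest p, at least 50 normalized counts and groups apart, where they led their family, stood in 3 tables or belonged to a list of well-known members. Members outside that rule were named after their values were seen: Ddx46, Dhx34, Dhx40, Hnrnpa0, Ints5, Rbm11, Rbm44, Snrpd2 and Srsf12, and Celf4, Dhx33, Hnrnph3, Ints9, Ints13, Luc7l3, Prpf3 and Rbm38 in a further comparison. The members and lists were chosen with earlier results of these data known. Of the columns with values per sample, 0 were without a sample. Reads without molecular identifiers are not independent molecules.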

Additional observations from a re-analysis of the deposited data

Results flagged for a closer look

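The effect of HFD differed between TET2 KO and WT in 4 members by the test of the genotype by diet interaction, and these are given as values. The log2 difference, TET2 KO minus WT, was 1.108 for Rbm12, 1.544 for Celf3, 1.44 for Ints6 and 0.6093 for Ddx3y. The genes that could enter this test were all listed for both genotype comparisons or for both diet comparisons. The test measures the difference of those listed effects, and 55.5% of the genes passed it. Exons of Rbm12 overlap Cpne1, those of Ints6 overlap Serpine3 and those of Celf3 overlap Riiad1. Celf3 had group means of only 0.14 to 0.35 FPKM, and Ints6 ran from 3.01 to 10.21 FPKM in the TET2 KO HFD libraries. Without WT HFD replicate 1 the count of members with an edgeR adjusted p under 0.05 for the interaction was 1.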

How the results depend on the processing

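The number of members called depended on scaling, on the test and on single libraries. The counts of called members under these alternatives have no share of all listed genes beside them. Of HFD against chow in WT 41 were called, 25 after rescaling to equal medians over listed genes (13 higher, 12 lower), 48 by DESeq2 and 20 to 31 without single libraries. Of TET2 KO against WT on HFD 22 were called, 12 after the rescaling (8 higher, 4 lower), 32 by DESeq2 and 6 to 26 without single libraries. Of TET2 KO against WT on chow 4 were called, 2 after TMM scaling and 2 after the rescaling, and 1 to 3 without single libraries. Of HFD against chow in TET2 KO 2 were called, 6 by DESeq2 and 1 to 2 without single libraries. At the adjusted p, DESeq2 called 28 members for HFD in WT where edgeR called 8. Members were listed by the authors' own DESeq2 test, so the DESeq2 counts at the unadjusted p were largely fixed by the listing. Those at the adjusted p repeat that kind of test on the same libraries and are not separate evidence. The interaction kept 4 calls at the unadjusted p in every alternative run, and the comparison of 3 groups, chosen after seeing the data with its alternatives, kept 0. The rescaling moved the median log2 fold change of all listed genes by 0.152, 0.135, -0.122 and 0.303 in TET2 KO on chow, HFD in WT, TET2 KO on HFD and HFD in TET2 KO, and TMM moved the last by 0.248. Of 588 values of single members under alternatives, 434 kept direction and call, 131 lost and 23 gained the call, and 0 changed sign. Over the members, the median log2 fold change went from -0.31 to -0.17 under the rescaling and -0.50 with the gene length trend removed for HFD in WT, from -0.43 to -0.28 and -0.57 for TET2 KO on chow, from 0.36 to 0.23 and 0.48 for TET2 KO on HFD, and from -0.32 to -0.02 and -0.32 for HFD in TET2 KO, where TMM gave -0.07. The cause was not tested.

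Libraries share replicate numbers, but same-numbered libraries did not deviate together in every pair of any comparison. With the replicate block 1, 24 and 13 members were called for TET2 KO on chow, HFD in WT and TET2 KO on HFD, and 0 kept an adjusted p under 0.05 for HFD in WT.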
